A study of Mus musculus with 8 samples.

Results

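Cytosolic ribosomal proteins are the protein components of the ribosomes that translate nuclear-encoded mRNA. Their genes were taken from the expression table by symbol: Rpl or Rps followed by a number and at most a short paralogue suffix, Rplp0 to Rplp2, and Rpsa. This gave 84 genes of the 21524 in the table, 51 of the large (60S) subunit and 33 of the small (40S) subunit. Symbols alone decided which genes were members, although the family was chosen with earlier results of these data known.

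Each library was made from spleen Tregs of mice, the Foxp3-expressing T cells that restrain other immune cells, which had been purified on a flow sorter. There were 4 labelled IL-2 (numbered 41 to 44) and 4 labelled Ctrl (45 to 48). The series concerns a mutated interleukin-2 with selective receptor binding, given after heart or kidney transplantation from BALB/c donors to C57BL/6 recipients together with CTLA-4 Ig, which blocks T cell co-stimulation. For these 8 libraries the labels give treatment as IL-2 or control and nothing more. They do not say whether the IL-2 was the mutated form, whether the mice carried a graft or had received CTLA-4 Ig, what the Ctrl mice received, or how many animals, of which age and sex, stood behind a library. The p-values therefore measure the spread between libraries, which may be technical.

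A ribosome joins a small subunit, which reads the mRNA, to a large subunit, which forms peptide bonds, and most ribosomal proteins are present once in it. Many of their mRNAs begin with a C followed by a run of pyrimidines, the 5′ terminal oligopyrimidine (TOP) motif, through which the mTOR pathway and the RNA-binding protein LARP1 control their translation and stability. T cells that leave quiescence enlarge their ribosome content, and interleukin-2 receptor signalling feeds into mTOR.

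Start sites of members with a strong response, with none, and with a paralogue are shown first, because the pyrimidine run at the start is the feature these mRNAs are known to share. Sequences come from RefSeq on build GRCm38.p6, matched by symbol, with 30 bases on either side of the annotated start, and capitals mark the longest run of C and T in that window, or the first where another is as long, as in Rps27l and Rpl22. The expression files use build GRCm39, so these positions serve only the sequences. For genes with several annotated starts the one with the lowest coordinate is printed.

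Rpl14, of the large subunit, which had the largest difference of the tested members, carries the longest run among the windows shown. The windows of Rplp0 and Rps2, which also differed strongly, hold short ones. In both of these the letters TATAAA lie after the annotated start, whereas in Rpl22l1 they lie before it. Starts were not measured, so a longer run at the start in use may lie outside the windows of Rplp0 and Rps2:
Rpl14 (chr9:120571487-120571546, plus strand): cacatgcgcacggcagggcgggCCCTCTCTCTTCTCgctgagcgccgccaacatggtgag
Rplp0 (chr5:115559437-115559496, plus strand): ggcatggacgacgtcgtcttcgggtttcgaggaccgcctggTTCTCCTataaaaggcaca
Rps2 (chr17:24720033-24720092, plus strand): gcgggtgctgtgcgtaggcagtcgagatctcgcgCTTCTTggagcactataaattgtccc

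Rps27, the tested member with a fold below 1, and its paralogue Rps27l:
Rps27 (chr3:90213619-90213678, minus strand): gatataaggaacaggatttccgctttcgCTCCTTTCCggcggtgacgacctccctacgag
Rps27l (chr9:66946056-66946115, plus strand): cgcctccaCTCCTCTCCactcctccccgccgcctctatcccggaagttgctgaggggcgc

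Rpl22 and its paralogue Rpl22l1:
Rpl22 (chr4:152324406-152324465, plus strand): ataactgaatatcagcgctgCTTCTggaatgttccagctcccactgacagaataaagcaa
Rpl22l1 (chr3:28805478-28805537, plus strand): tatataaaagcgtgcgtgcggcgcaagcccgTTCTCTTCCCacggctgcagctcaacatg

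RefSeq promoters were at hand for 63 of the 84 members. A run of 8 or more C or T lay within 30 bases of the start in 35 of the 63 (55.6%), compared with 25.8% of the 27025 genes in the sequence table. The letters CCGGAAG, a core bound by ETS-family factors, occurred on either strand of the 300 bases around the start in 26 of the 63 (41.3%). They occurred in 9.93% of all genes and in 14.1% of the 15476 genes that are also in the expression table. AAGATGGC, which YY1 binds, occurred in 6 of the 63 (9.52%), in 3.19% of all genes and in 3.80% of those also in the expression table. The end of the first and the beginning of the second share the letters AAG, so the motifs can overlap. Among members tested for expression, 28 of 32 with the pyrimidine run were higher in the IL-2 libraries (median log2 difference 0.31), as were 21 of 25 without it (median 0.27). With and without the ETS letters the counts were 23 of 24 and 26 of 33. With the YY1 letters 3 of 6 were higher (median 0.17), and without them 46 of 51 (median 0.30). Among all 5261 genes tested for expression 16.8% were higher. The 6 genes with the YY1 letters are few, and no difference by motif was tested. A match describes letters in a window and is not a measured binding site or start.

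Normalised reads are the deposited values with the transformation inverted. Multiplied by 1 size factor per library, they summed to 4953546 to 6399417 reads in the IL-2 libraries and 4970819 to 6147508 in the Ctrl libraries. Not every value became a whole number of reads under that factor, so these totals are estimates. Between 12302 and 12688 genes per library lay above the lowest value. All 8 Treg markers examined were present, with sums of 42374 to 49032 normalised reads in the IL-2 libraries and 31630.0 to 32985 in the Ctrl libraries. Most of that difference was Il2ra, a chain of the IL-2 receptor (18107 ± 1601 with IL-2 against 6935 ± 781 in Ctrl libraries), with Lrrc32 and Tnfrsf18 also higher. Cd4 was lower (2523 ± 354 with IL-2 against 4136 ± 299.6 in Ctrl libraries, limma adjusted p = 1.49e-04), and Foxp3, Ctla4, Ikzf2 and Cd3e did not pass. Markers of B cells summed to 100.2 to 212 with IL-2 against 382 to 496 in Ctrl libraries. Almost all of it was Cd74 and Cd79b (Ms4a1, Cd79a, Pax5 and Ebf1 each under 10 reads in every library). Myeloid markers summed to 836 to 1062 with IL-2 against 1637 to 1889 in Ctrl libraries, mostly Ctss. Itgam had 34.9 to 114 reads with IL-2 and 27.3 to 85.2 in Ctrl libraries. Lyz2 was at 0 in every IL-2 library and at 5.55 to 14.5 reads in the Ctrl libraries. Adgre1, with fewer reads, was also lower in every IL-2 library than in any Ctrl library. Csf1r, Cd68, Itgax, Fcer1g and Tyrobp overlapped between groups. Markers of CD8 T and NK cells summed to 265 to 322 with IL-2 against 199 to 243 in Ctrl libraries, with Ncr1 near 0. Within that list Nkg7 was higher (143 ± 7.17 with IL-2 against 39.2 ± 19.0 in Ctrl libraries) and Klrb1c lower (2.90 ± 3.53 with IL-2 against 36.4 ± 29.5 in Ctrl libraries; log2 reads difference −2.27, limma adjusted p = 0.00804), while Cd8a, Cd8b1 and Prf1 did not pass on that scale. Erythroid, plasma cell and platelet markers summed to at most 84.9 reads in any library. The Y-linked transcript Ddx3y was found in IL-2 43 and 44 and in Ctrl 46, 47 and 48 and was at 0 in the others, so the libraries differ in sex or sex mixture. With Ddx3y presence as a covariate, 38 of 46 large-subunit and 22 of 31 small-subunit members were higher and 0 lower, compared with 41 and 26 without it. The part of the marker differences in the results was not tested.

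Transcripts of cytosolic ribosomal proteins took a larger share of the reads in the IL-2 libraries. They made up 6.14, 6.26, 5.80 and 5.49% in the IL-2 libraries, against 4.86, 4.95, 4.46 and 4.44% in the Ctrl libraries. The groups did not overlap: the share averaged 5.92 ± 0.347% with IL-2 and 4.68 ± 0.264% in controls (SD, n = 4 each), a difference of 1.25 percentage points. Large-subunit transcripts made up 3.80 ± 0.205% with IL-2 and 2.96 ± 0.163% in controls, and small-subunit transcripts 2.12 ± 0.143% with IL-2 and 1.71 ± 0.101% in controls. In these bulk libraries fewer cells of a type and less RNA per cell cannot be told apart, and a share says nothing of the amount of RNA in a cell.

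Within each group the share differed between libraries in a way most members followed. IL-2 library 42 held the highest value of its group in 47 of the 77 tested members and library 44 the lowest in 53. In the Ctrl group, library 46 was highest in 47 and library 48 lowest in 40. Mki67, a marker of cycling cells, had 5332, 5937, 6142 and 13044 normalised reads in the IL-2 libraries, against 2810.2, 3209, 2845 and 4271 normalised reads in the Ctrl libraries. Its highest value in each group was thus in library 44 and library 48, the libraries with the lowest ribosomal protein share of their group. The part of cycling cells in these shares was not tested. Without these 2 libraries 39 of 46 large-subunit and 25 of 31 small-subunit members were higher past the test described next, compared with 41 and 26 when all 8 libraries entered. The coefficient of variation of a tested member had a median of 8.15% among the IL-2 libraries and 7.15% among the Ctrl libraries, while counting error alone would give 1.77% at the median of 3205 reads.

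**Figure D1:**
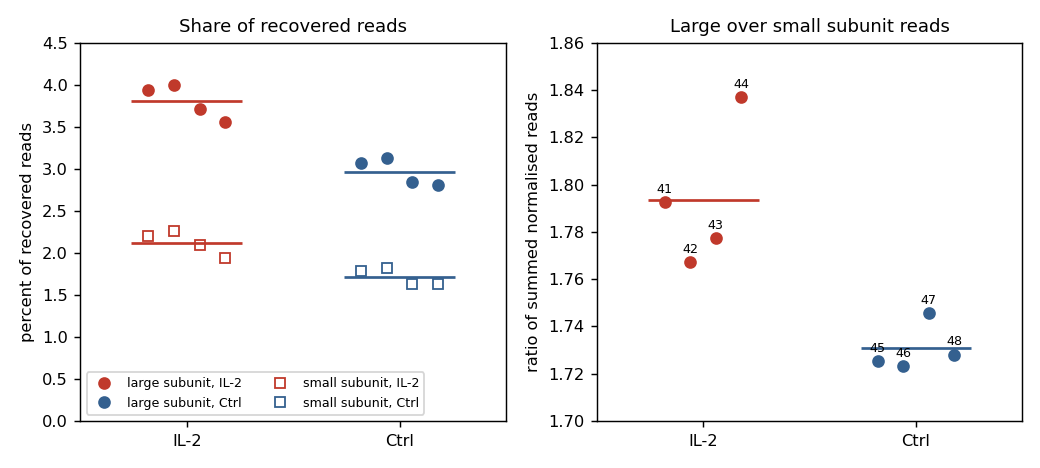
Share of recovered reads held by large-subunit (filled circles) and small-subunit (open squares) transcripts (left, percent) and the ratio of their summed normalised reads (right, on an axis that does not start at 0), 1 point per library with a bar at the group mean. All 4 IL-2 libraries lie above all 4 Ctrl libraries in both shares and in the ratio.

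Nearly all members were higher in the IL-2 libraries, by similar small amounts. Of the 77 members tested, 67 were higher and 0 lower past an adjusted p of 0.05 (limma on the deposited log2 values, adjusted over all 5261 genes tested), where 16.8% of all tested genes were higher. They comprised 41 of 46 large-subunit and 26 of 31 small-subunit members. The 16.8%, here and below, is not matched for reads: tested members had a median of 3205, while genes entered the test from about 206. Under a stricter filter, at least 2 above the lowest value, 380 of 1519 genes were higher. Of members, 41 of 44 large-subunit and 27 of 31 small-subunit ones were higher under that filter. The median log2 difference was 0.31 over the members (0.32 large, 0.30 small) and −0.01 over all tested genes. Ratios of group means ran from 0.947 (Rps27) to 1.58 (Rpl14) with a median of 1.29, lay between 1.2 and 1.5 in 64 of 77 members, and exceeded 1 in 76.

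All 4 IL-2 libraries lay above all 4 Ctrl libraries in 58 members (37 large, 21 small) and below them in none of the 77, where 16.7% of all tested genes were apart in the upward direction. The deposited scale shrinks differences of genes with few reads, so the test was also run on log2 of normalised reads plus 5, which admits genes with at least 10 reads in at least 4 libraries. On it 64 of 80 members were higher (40 of 48 large, 24 of 32 small) and 0 lower, with 10.9% of all genes higher, and the median was 0.37 against −0.01 over all genes. Leaving out each library in turn kept the call of 56 of the 67 members in every one of the 8 fits. The 11 that lost it at least once were Rpl11, Rpl13a, Rpl26 and Rplp2 of the large subunit and Rps3, Rps3a1, Rps6, Rps21, Rps23, Rps24 and Rps28 of the small subunit.

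**Figure D2:**
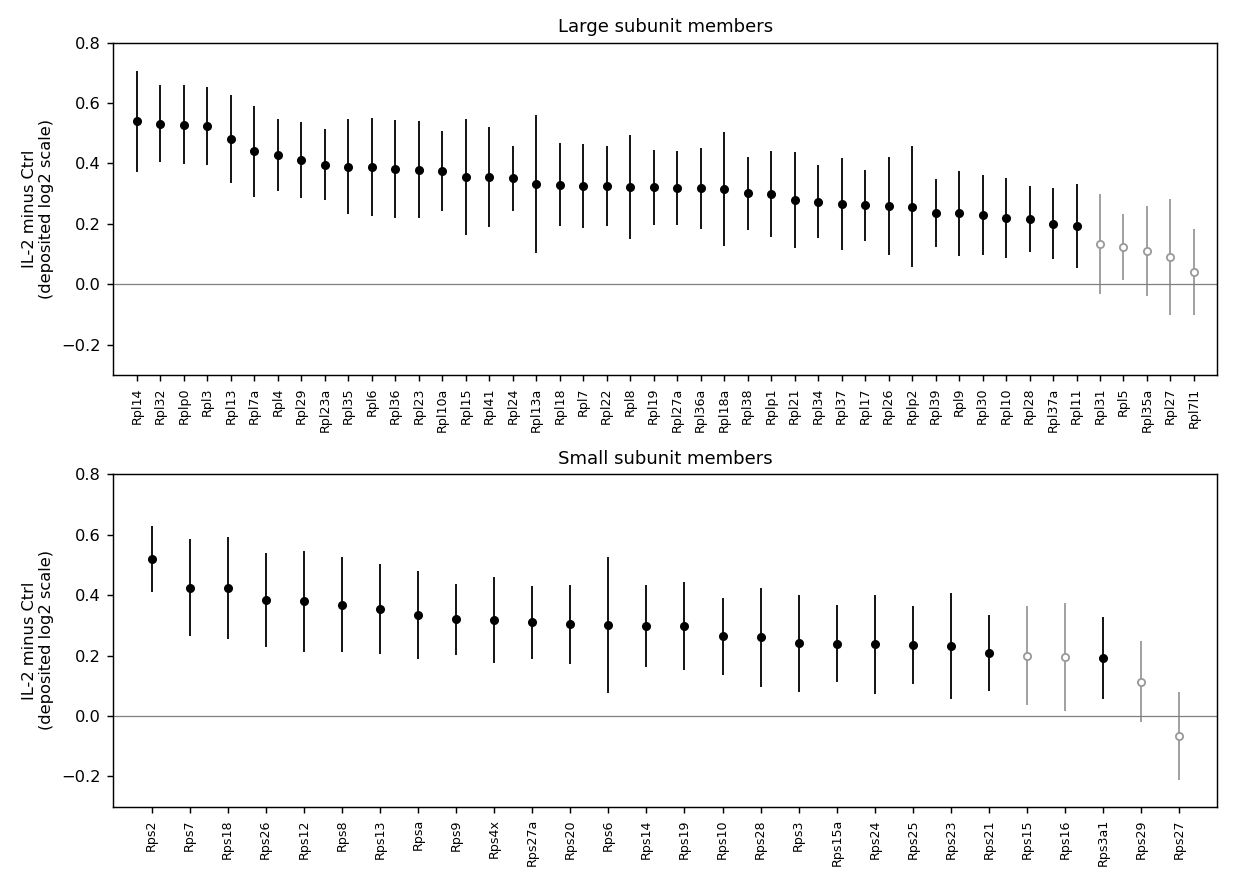
Difference of IL-2 minus Ctrl on the deposited log2 scale for tested large-subunit (top) and small-subunit members (bottom), sorted by size, with 95% confidence intervals from the fit over all genes; filled points passed an adjusted p of 0.05 and open points did not. All filled points lie above 0, and Rps27 alone among the members shown has a point below 0.

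Among large-subunit members the smallest p-values belonged to Rpl32, Rpl3, Rplp0, Rpl4 and Rpl23a. Each was higher in every IL-2 library than in any Ctrl library, by 1.35-fold (Rpl23a) to 1.55-fold (Rpl32). Rpl32 had 4961, 5568, 4998 and 5302 normalised reads in the IL-2 libraries, against 3619, 3500.2, 3125 and 3233 in the Ctrl libraries. The groups were well apart, and Rpl32 rose 1.55-fold (log2 difference 0.53 ± 0.06 SE, limma adjusted p = 3.40e-05). Rpl3, which helps form the peptidyl transferase centre, had 10204, 11748, 10342 and 10226 normalised reads in the IL-2 libraries, against 7386, 7515, 6870.0 and 6822 in the Ctrl libraries. IL-2 library 42 stood above the other IL-2 libraries, yet all 4 exceeded every control (log2 difference 0.52 ± 0.06 SE, limma adjusted p = 4.61e-05). Rplp0, the base protein of the stalk that recruits elongation factors, had 12379, 13311, 11728 and 11743 normalised reads in the IL-2 libraries, against 8140.0, 8669.9, 8691 and 7603 in the Ctrl libraries. Here too the groups did not overlap (log2 difference 0.53 ± 0.06 SE, limma adjusted p = 4.82e-05).

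Rpl4, which lines the exit tunnel and ranked with Rplp0 and Rpl19 among the 3 large-subunit members with most reads, had 12771, 12646, 12235 and 11684 normalised reads in the IL-2 libraries, against 9097, 9545, 8809 and 8439.7 in the Ctrl libraries. Its rise was 1.37-fold, with the groups apart (log2 difference 0.43 ± 0.05 SE, limma adjusted p = 1.11e-04). Rpl23a, which sits at the tunnel exit where the signal recognition particle docks, averaged 10696 ± 389.9 with IL-2 against 7943 ± 418 in Ctrl libraries, in normalised reads (SD, n = 4 each, as for all such pairs of means; log2 difference 0.40 ± 0.05 SE, limma adjusted p = 1.77e-04). Rpl19, the large-subunit member with the next most reads, averaged 10955 ± 688 with IL-2 against 8605 ± 363 in Ctrl (log2 difference 0.32 ± 0.06 SE, limma adjusted p = 0.00122). Rpl14 had the largest fold of the tested members. It stood at 4193, 3751, 3749 and 4005 normalised reads in the IL-2 libraries, against 2870.2, 2740.3, 2135 and 2194 in the Ctrl libraries, and the groups did not overlap although the Ctrl libraries spread from 2135 to 2870.2 (log2 difference 0.54 ± 0.08 SE, limma adjusted p = 2.55e-04).

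The stalk and the 5S particle show how members of one substructure compared. Of the stalk proteins, Rplp0, Rplp1 and Rplp2 all passed, Rplp1 at 7472 ± 584 with IL-2 against 5923 ± 398 in Ctrl libraries (log2 difference 0.30 ± 0.07 SE, limma adjusted p = 0.00411). Rplp2 was close to the threshold, at 7828, 8621, 6899.8 and 5947 normalised reads in the IL-2 libraries, against 5369.7, 6078, 6007 and 6377 in the Ctrl libraries. The lowest IL-2 library fell below the highest controls, the adjusted p was 0.0494 in limma, and the call held in 1 of 8 fits that left out a library, the one without IL-2 44 (adjusted p = 0.00518). Rpl12, at the base of the stalk, had too few reads for the main test. It had 205, 156, 152 and 236 normalised reads in the IL-2 libraries, against 51.6, 101, 55.5 and 134 in the Ctrl libraries. All 4 IL-2 libraries were above the controls, 2.19-fold on average, and on the log2 reads scale the rise was 1.17 ± 0.30 SE (limma adjusted p = 0.0153).

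Rpl5 and Rpl11, which bind the 5S rRNA and, when free, the p53 regulator MDM2, were among the smaller differences. Rpl11 had 1960.4, 1661, 1957 and 1697 normalised reads in the IL-2 libraries, against 1673, 1331, 1501 and 1515 in the Ctrl libraries. The groups overlapped, and the call (log2 difference 0.19 ± 0.06 SE, limma adjusted p = 0.0367) held in 3 of 8 fits that left out a library, those without IL-2 42, IL-2 44 or Ctrl 45. Rpl5 had 493, 476, 539 and 499 normalised reads in the IL-2 libraries, against 442, 457, 367 and 406 in the Ctrl libraries. All IL-2 values were above all controls, but the difference did not pass (log2 difference 0.12, 95% interval 0.01 to 0.23, limma adjusted p = 0.0847). Of 9 members around the exit tunnel 8 passed, and Rpl31 did not (0.13, interval −0.03 to 0.30, limma adjusted p = 0.205). This is close to the 41 of 46 over the large subunit, where 16.8% of all tested genes were higher.

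In the small subunit members with small p-values included Rps2, Rps9 and Rps7, which rose 1.29-fold (Rps9) to 1.54-fold (Rps2) with no overlap between groups. Rps2, at the mRNA entry channel, had 4861, 4980.2, 4823 and 4459 normalised reads in the IL-2 libraries, against 3118, 3148, 3029 and 3130.5 in the Ctrl libraries. The Ctrl libraries lay within 3029 to 3148, far below every IL-2 library, and Rps2 had the smallest p of all members (log2 difference 0.52 ± 0.05 SE, limma adjusted p = 1.32e-05). Rps9 averaged 6302 ± 318 with IL-2 against 4895 ± 223 in Ctrl (log2 difference 0.32 ± 0.05 SE, limma adjusted p = 8.75e-04). Rps7 averaged 7667 ± 804 with IL-2 against 5501 ± 426 in Ctrl (log2 difference 0.42 ± 0.07 SE, limma adjusted p = 0.00105).

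Of the members assigned to the head of the small subunit 10 of 14 passed, and of those assigned to its body and platform 16 of 17. Over the small subunit 26 of 31 passed, and among all tested genes 16.8% were higher. Whether head and body differ was not tested. The 3 small-subunit members with most reads were Rpsa, Rps24 and Rps3a1. Rpsa, also known as the laminin receptor, averaged 8500.1 ± 786 with IL-2 against 6565 ± 387 in Ctrl libraries (log2 difference 0.33 ± 0.07 SE, limma adjusted p = 0.00244). Rps24 had 8253, 9054, 7654 and 6969 normalised reads in the IL-2 libraries, against 6531, 7379, 6339 and 6304 in the Ctrl libraries. Its lowest IL-2 library was below the highest control, and the call (log2 difference 0.24 ± 0.08 SE, limma adjusted p = 0.0314) held in 3 of 8 fits that left out a library, those without IL-2 43, IL-2 44 or Ctrl 46.

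Rps3a1 had 8183, 8175, 7477 and 6897 normalised reads in the IL-2 libraries, against 6742, 7018, 6299 and 6421 in the Ctrl libraries. The groups overlapped here as well (log2 difference 0.19 ± 0.06 SE, limma adjusted p = 0.0350, held without IL-2 44 or Ctrl 46 and in none of the other 6 such fits), and after quantile normalization the adjusted p was 0.544 in limma. Rps6, the substrate of the S6 kinases downstream of mTOR, had 6485, 6466, 5123 and 5798 normalised reads in the IL-2 libraries, against 5171, 5636, 4386 and 3727 in the Ctrl libraries. Its values overlapped between groups, and the call (log2 difference 0.30 ± 0.10 SE, limma adjusted p = 0.0433) held in 3 of 8 fits, those without IL-2 43, Ctrl 45 or Ctrl 46. Rps27a, made as a fusion with ubiquitin, was apart between groups at 3966 ± 189 with IL-2 against 3058 ± 198 in Ctrl libraries (log2 difference 0.31 ± 0.06 SE, limma adjusted p = 0.00125).

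The 10 tested members that did not pass included Rpl5, Rpl7l1, Rpl27, Rpl31 and Rpl35a of the large subunit and Rps15, Rps16, Rps27 and Rps29 of the small subunit. Rpl27 had 1279, 1121, 1009 and 1173 normalised reads in the IL-2 libraries, against 1210.5, 1183, 1065 and 733 in the Ctrl libraries. The groups overlapped and Ctrl 48 was the lowest library (log2 difference 0.09, 95% interval −0.10 to 0.28, limma adjusted p = 0.479). Without Ctrl 48 the difference of Rpl27 was −0.0071. Rpl35a averaged 1554 ± 66.8 with IL-2 against 1398 ± 209 in Ctrl libraries with overlapping groups (limma adjusted p = 0.246, and 0.0442 without Ctrl 46).

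Rps16 averaged 1663 ± 133 with IL-2 against 1377 ± 252 in Ctrl libraries (interval 0.02 to 0.37, limma adjusted p = 0.0917). Rps29, a zinc-binding protein of the head, had 1539, 1567, 1354 and 1199 normalised reads in the IL-2 libraries, against 1259, 1231, 1278 and 1239 in the Ctrl libraries. IL-2 library 44 was below every control and the other 3 IL-2 libraries were above them (interval −0.02 to 0.25, limma adjusted p = 0.183, and 0.0407 without IL-2 44). Rps15 reached a limma adjusted p of 0.0633 with a log2 difference of 0.20 (interval 0.03 to 0.36). These intervals allow differences as large as those of many members that passed.

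Rps27, another zinc-binding protein, was the tested member furthest from the others. It had 2961, 3052, 2865 and 2385 normalised reads in the IL-2 libraries, against 2941, 3228, 2896 and 2829.7 in the Ctrl libraries. The values overlapped, with IL-2 library 44 lowest of all (log2 difference −0.07, 95% interval −0.21 to 0.08, limma adjusted p = 0.496).

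**Figure D3:**
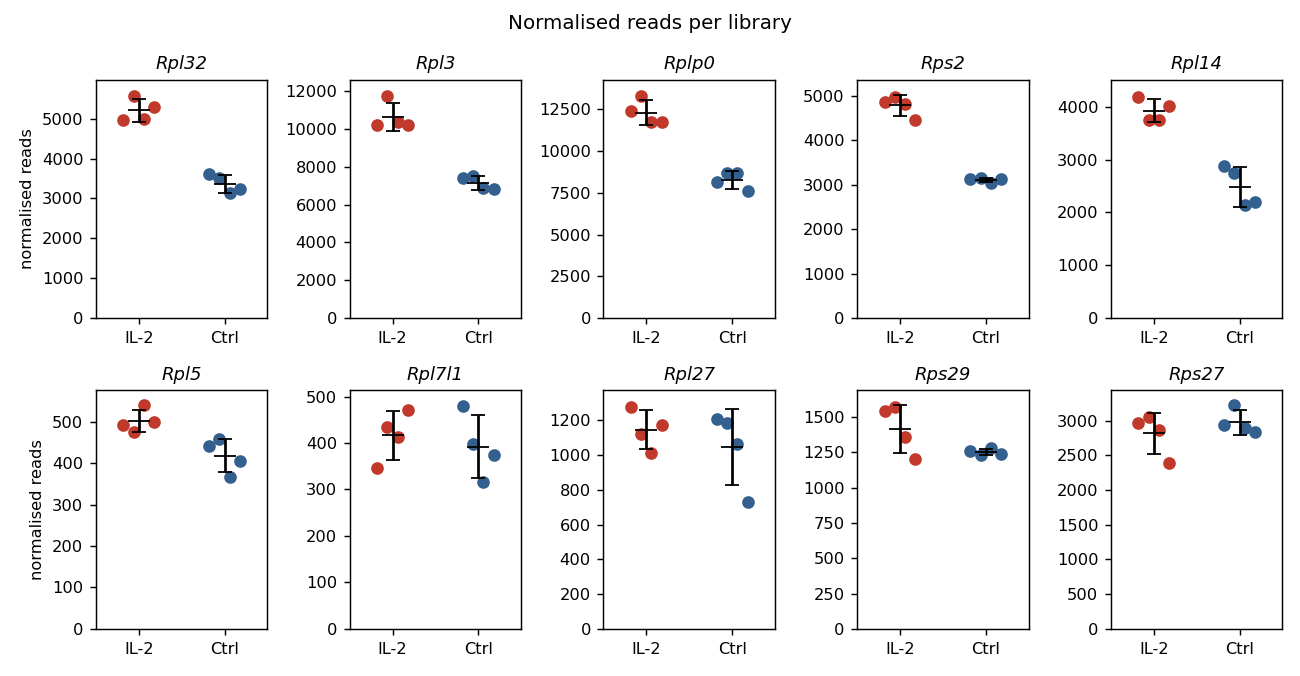
Normalised reads per library for 5 members with large differences (top: Rpl32, Rpl3, Rplp0, Rps2, Rpl14) and 5 that did not pass the test (bottom: Rpl5, Rpl7l1, Rpl27, Rps29, Rps27), 1 point per library, with the mean and SD in black and each axis starting at 0. In the top row every IL-2 library is above every Ctrl library; in the bottom row only Rpl5 has groups that do not overlap.

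To see which members departed from the common change, each library's values were also taken relative to the summed reads of all members, a comparison added after seeing that nearly all members rose. In this fit, on log2 reads plus 5, 7 of 80 members differed between groups (12 before adjustment for multiple tests). Of all 10777 genes, 39.6% differed from the family in either direction. The subtraction centres the members near 0 and, as their sum was 1.31-fold higher with IL-2, lowers all other genes. The 39.6% therefore follows largely from the subtraction, and its contrast with the members does not show that they move together. Relative to the sum, Rps2, Rpl32, Rpl14, Rpl3 and Rplp0 were higher and Rps27 and Rps3a1 were lower in the IL-2 libraries. The adjustment ran over all 10777 genes, and the many that differed through the subtraction make it lenient for members. An adjustment over the 80 members alone was not run. Rps27 departed most, by −0.47 ± 0.07 SE (limma adjusted p = 3.91e-04), and made up 0.821% ± 0.0442 of member reads with IL-2 and 1.14% ± 0.0251 in controls (SD, n = 4 each). Its call held in 8 of 8 fits that left out a library, with an adjusted p of at most 0.00174.

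The other 6 departures were smaller and depended on single libraries. Rps2 was 0.23 above the sum (limma adjusted p = 0.0202) and kept its call in 6 of 8 fits, losing it without IL-2 43 or Ctrl 46. Rpl32 (0.24) kept it without IL-2 41, IL-2 42, Ctrl 45 or Ctrl 48 and lost it in the other 4 fits, and Rpl14 (0.28) kept it without IL-2 42, Ctrl 45 or Ctrl 46. Rpl3 and Rplp0 (0.18 each) kept it in 1 fit each, without IL-2 41 for Rpl3 and without Ctrl 47 for Rplp0. Rps3a1 (−0.18) kept it in 0 of 8. The summed reads of the large subunit were 1.33-fold higher with IL-2 and those of the small subunit 1.28-fold, and the ratio of large to small was 1.79, 1.77, 1.78 and 1.84 in the IL-2 libraries, against 1.73, 1.72, 1.75 and 1.73 in the Ctrl libraries. The groups did not overlap (1.79 ± 0.0308 with IL-2 and 1.73 ± 0.0102 in controls, SD, n = 4 each).

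**Figure D4:**
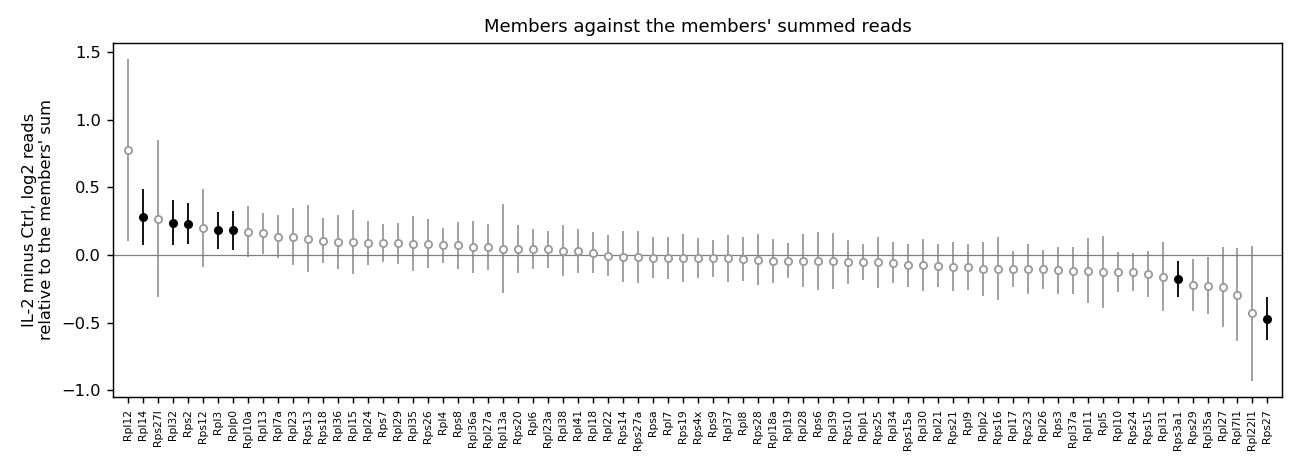
Difference of IL-2 minus Ctrl for members on log2 normalised reads plus 5 after subtracting the log2 of the members' summed reads in each library, sorted, with 95% confidence intervals; filled points passed an adjusted p of 0.05. Most members lie near 0, Rps27 at the right end is 0.47 below it, and the wide intervals at either end belong to Rpl12, Rps27l and Rpl22l1, which have few reads.

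Most paralogues had few or no reads, and of the 8 examined only 2 had enough for the main test. Of these 2, Rpl36al was higher and Rpl7l1 did not pass, where 16.8% of all tested genes were higher. So few genes say nothing of paralogues as a list. Rpl3l, the striated muscle form of Rpl3, and Rpl10l, a testis form of Rpl10, were at 0 in all 8 libraries. Rpl39l, found mainly in testis, had 3.19 reads in IL-2 library 44, 2.87 in Ctrl 48 and 0 in the other 6. Rps4l had 2.03 to 9.56 reads in the IL-2 libraries and 2.72 to 7.39 in the Ctrl libraries. The parents Rpl3, Rpl10, Rpl39 and Rps4x all rose.

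Rps27l, a p53-responsive paralogue of Rps27, had 88.5, 76.3, 99.5 and 139.6 normalised reads in the IL-2 libraries, against 66.0, 60.2, 54.7 and 62.1 in the Ctrl libraries. The groups did not overlap and the mean was 1.66-fold higher with IL-2, but at this depth the difference missed the threshold on the log2 reads scale (limma adjusted p = 0.0779). Of the reads of Rps27 and Rps27l together, Rps27l made up 2.90, 2.44, 3.36 and 5.53% in the IL-2 libraries, against 2.19, 1.83, 1.85 and 2.15% in the Ctrl libraries. The shares did not overlap, at 3.56 ± 1.37% with IL-2 and 2.01 ± 0.191% in controls (SD, n = 4 each), and the highest was again in IL-2 library 44.

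Rpl22l1, which in mice is repressed by Rpl22 and takes its place when Rpl22 is lost, had 112, 139, 164 and 123 normalised reads in the IL-2 libraries, against 179, 167, 132 and 90.1 in the Ctrl libraries. The values overlapped (log2 reads difference −0.04, limma adjusted p = 0.930), while Rpl22 rose 1.30-fold (log2 difference 0.32 ± 0.06 SE, limma adjusted p = 0.00168). Its share of the pair's reads averaged 2.74 ± 0.507% with IL-2 and 3.67 ± 0.788% in controls, with overlap. Rpl7l1, a factor of large-subunit assembly related to Rpl7, had 347, 433, 414 and 472 normalised reads in the IL-2 libraries, against 480.4, 397, 316 and 375 in the Ctrl libraries. These overlapped too (limma adjusted p = 0.680, interval −0.10 to 0.18), and Rpl7 itself rose (log2 difference 0.33 ± 0.06 SE, limma adjusted p = 0.00210).

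Rpl36al, whose symbol falls outside the pattern, was measured for comparison with Rpl36a. It had 1285, 1149, 1368 and 1304 normalised reads in the IL-2 libraries, against 1017, 868, 724 and 753 in the Ctrl libraries. The groups were apart and it rose 1.52-fold (log2 difference 0.38 ± 0.07 SE, limma adjusted p = 0.00123), as did Rpl36a, 1.36-fold (log2 difference 0.32 ± 0.06 SE, limma adjusted p = 0.00210). Rpl36al made up 39.4 ± 3.02% of the pair's reads with IL-2 and 36.7 ± 1.71% in controls, with overlap. Reads of near-identical copies are divided among them by estimation, so all values of paralogue pairs are uncertain.

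The same holds for processed pseudogenes, of which this family has many. Rows named as ribosomal protein pseudogenes summed to 524, 1214, 645 and 749 normalised reads in the IL-2 libraries, against 345, 321, 333 and 463 normalised reads in the Ctrl libraries. All IL-2 libraries were above all controls, with library 42 highest through a single row, Rpl10-ps3. Adding these rows left the difference in share at 1.26 percentage points, compared with 1.25.

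**Figure D5:**
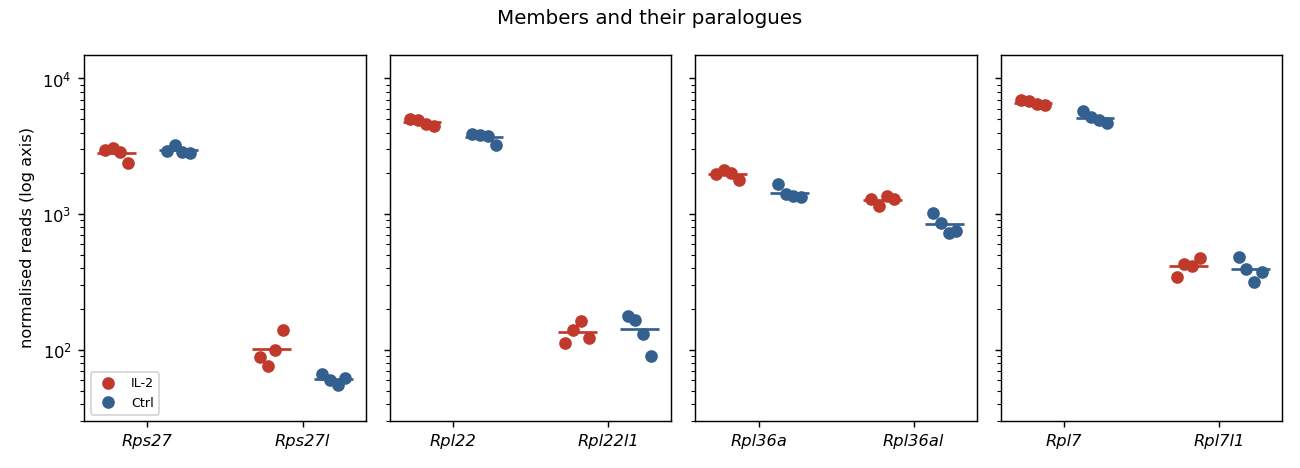
Normalised reads per library (log axis) of 4 parent genes and their paralogues, 1 point per library with a bar at the group mean. Rps27l and Rpl36al have IL-2 libraries entirely above the controls; Rpl22l1 and Rpl7l1 overlap, while their parents Rpl22 and Rpl7 do not.

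Levels between members were compared per kilobase of coding sequence, which 83 members had. Among tested members the mean ran from 563 to 35342 normalised reads per kilobase with IL-2 (median 7921) and from 469 to 26429.7 in controls (median 6148). Rpl41, the shortest ribosomal protein, stood highest per kilobase, at 35342 with IL-2 against 26429.7 in Ctrl. Its coding sequence has 138 bases, and in normalised reads it was below Rpl4 (4877 against 12334 with IL-2). Rpl23a (22855 with IL-2 against 16972 in Ctrl), Rplp1 (21849 with IL-2 against 17318 in Ctrl), Rpl26 (21754 with IL-2 against 17932 in Ctrl) and Rplp2 (21229 with IL-2 against 17269 in Ctrl) followed and were closer to each other than to Rpl41. Rpl5 and Rpl7l1 were the lowest tested members, at 563 with IL-2 against 469 in Ctrl and 564 with IL-2 against 531 in Ctrl, and Rpl12 had 378 with IL-2 against 172 in Ctrl. All reads of a gene were divided by its coding length alone, without untranslated parts. This can raise the level of members with a short coding sequence, so the ranking is not one of transcript abundance. These are levels of assigned reads, which estimation divides among similar sequences.

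Rack1 and Fau are ribosomal components that the symbol pattern misses. Rack1, a signalling scaffold on the small-subunit head, averaged 4681 ± 326 with IL-2 against 3453 ± 358 in Ctrl libraries, in normalised reads (log2 difference 0.37 ± 0.07 SE, limma adjusted p = 0.00166). Fau, which encodes Rps30 fused to a ubiquitin-like protein, averaged 5496 ± 306 with IL-2 against 4889.5 ± 218 in Ctrl and did not pass (log2 difference 0.15 ± 0.06 SE, limma adjusted p = 0.0619). Without IL-2 library 44, the lowest of its group, the adjusted p of Fau was 0.0220.

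Other mRNAs with a TOP motif were mostly higher as well: of 14 tested, 10 were higher and 0 lower, where 16.8% of all tested genes were higher, with a median log2 difference of 0.30. Eef2, the translocation factor of elongation, averaged 20429 ± 1548 with IL-2 against 13732 ± 766 in Ctrl libraries, in normalised reads (log2 difference 0.55 ± 0.06 SE, limma adjusted p = 5.54e-05). Eef1a1, which delivers aminoacyl-tRNA, averaged 42297 ± 1955 with IL-2 against 30497 ± 1466 in Ctrl (log2 difference 0.46 ± 0.06 SE, limma adjusted p = 6.65e-05). Npm1, a nucleolar chaperone, averaged 4977 ± 27.1 with IL-2 against 3272 ± 247 in Ctrl (log2 difference 0.51 ± 0.05 SE, limma adjusted p = 2.92e-05). Eif3e, Eif4b, Tpt1 and Nap1l1 did not pass.

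Of 5 tested genes that control TOP mRNAs 1 passed, a share near the 16.8% of all tested genes that were higher, so the count says nothing of the list. Larp1, which binds the TOP motif, had 3112, 3137, 3460.1 and 2743 normalised reads in the IL-2 libraries, against 1709, 1858, 1631 and 1969 in the Ctrl libraries. The groups were far apart, 1.74-fold (log2 difference 0.61 ± 0.07 SE, limma adjusted p = 3.37e-05). Mtor itself averaged 676 ± 36.9 with IL-2 against 805 ± 97.0 in Ctrl and did not pass (log2 difference −0.14 ± 0.06 SE, limma adjusted p = 0.0895), although all its IL-2 values were below the controls. Larp4, Rps6kb1 and Eif4ebp2 did not pass either.

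Of 12 chaperones and assembly factors of ribosomes 6 had enough reads for the main test, and 0 were higher or lower. Among all tested genes 16.8% were higher, so 6 genes are too few to set this list apart. Their smallest adjusted p was that of Bop1, a factor of large-subunit rRNA processing (log2 difference 0.16 ± 0.06 SE, limma adjusted p = 0.0565). On the log2 reads scale, where 10.9% of all genes were higher, 1 of 12 passed, Nob1, the nuclease that finishes the 18S rRNA (log2 reads difference 0.93, limma adjusted p = 0.0313). Of the genes through which free ribosomal proteins reach p53, Mdm2, Mdm4 and Trp53 were tested and 0 of 3 passed, although without IL-2 44 the adjusted p was 0.0310 for Trp53 (higher) and 0.0492 for Mdm4 (lower), and without Ctrl 46 it was 0.0430 for Mdm4.

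Mitochondrial ribosomal proteins, encoded by 78 other genes, had fewer reads. Of 9 tested, 1 was higher, where 16.8% of all tested genes were, and on the log2 reads scale 4 of 78, where 10.9% of all genes were. Their summed reads averaged 10211 ± 233 with IL-2 and 8822 ± 224 in controls (1.16-fold, groups apart), beside 1.31-fold for the cytosolic members. Whether the families differ in their response was not tested. Of 18 members mutated in human Diamond-Blackfan anaemia, an inherited failure of red cell formation, 11 were higher and 0 lower. Over all tested members 67 of 77 were higher, and over all tested genes 16.8%. The median log2 difference of the 18 was 0.25 beside 0.31 over all tested members, a difference that was not tested.

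Over the 8 libraries, the genes outside the family that followed the members' summed reads most closely, by Pearson r of log2 normalised reads plus 5 among 10697 genes, were Gpi1 (r = 0.986), Nudt2 (0.984) and Rmi2 (0.982). Gpi1, an enzyme of glycolysis, averaged 1361 ± 68.9 normalised reads in the IL-2 group and 975 ± 43.5 in the Ctrl group. Nudt2 averaged 36.6 ± 5.97 with IL-2 and 14.4 ± 3.66 in Ctrl libraries. Rmi2 averaged 194 ± 32.3 with IL-2 and 71.2 ± 18.7 in Ctrl libraries. The libraries fall into the 2 treatment groups, so the coefficients largely rest on the difference between them.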

How the data were processed

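RNA from flow-sorted mouse spleen Tregs was made into stranded total RNA libraries, per the labels' protocols, and 1 deposited table holds the 8 libraries, whose columns were matched by library number. Its values are on a log2 scale, made by the authors with the variance-stabilising transformation of DESeq2, per the file headers and name. The submitters' processing notes list Salmon, DESeq2 and genome build GRCm39. How they were set, and which annotation and filters were used, is not given in the sources used here. All libraries share a lowest value of 8.69, which stands for 0 reads. Normalised reads were recovered by inverting the transformation. Size factors came from the commonest value in each library, taken to stand for 1 read. Of 40 values checked 34 were whole reads within 0.001. These were the commonest values and included those that set the factors, so the check is weak. It does not show that 1 factor per library holds for all genes. A value 1 above the lowest equals 206 normalised reads, so differences of genes with few reads are understated on the deposited scale. Ratios (fold) are of mean normalised reads computed from the deposited values.

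Genes with at least 4 of 8 libraries at least 1 above the lowest value were tested, 5261 in all. Deposited values, IL-2 minus Ctrl, were fitted with limma 3.58.1 (lmFit, eBayes with trend; R 4.3.3), without covariates, and adjusted by Benjamini-Hochberg with a threshold of 0.05. The step was tested on simulated data. Alternatives were filters, scalings, pseudocounts of 1, 5 and 20, limma settings, Ddx3y presence as a covariate, and leaving out libraries. Added after seeing the data were the fit relative to the members' summed reads and the fit without IL-2 44 and Ctrl 48.

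The members, gene lists and tests were chosen with earlier results of these data known. Named genes are, in each subunit, the 5 members with the smallest and 3 with the largest adjusted p and the 3 with most reads, the expressed paralogues with their parents, 11 genes of known role, up to 3 genes with the smallest adjusted p of each other list, and the 3 non-members most alike. Further members named, such as Rpl14, Rpl31 and Rps15, were chosen after their values were seen. Coding lengths are the longest per gene in GENCODE M21. Figures used Python 3.11.15 and matplotlib 3.10.9. Some genes that the rule takes are not reported here and are left out of the plots of differences, while the counts include them.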

Additional observations from a re-analysis of the deposited data

Results flagged for a closer look

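Of 122 groups of 4 libraries looked at among the named genes, 3 held a library far from the other 3 by Dixon's test, which flags about 1 group in 20 by chance. Rpl3 had 11747.5 normalised reads in IL-2 library 42, where the other IL-2 libraries had 10204 to 10342. Fau had 5039.98 in IL-2 library 44, where the others had 5600.2 to 5677. Bop1 had 458 in IL-2 library 42, where the others had 332 to 344.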

How the results depend on the processing

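The number of members higher in the IL-2 libraries stayed within 1.5 times the main count, and 0 were lower, under each of the 22 alternatives: 32 to 41 of the large subunit (main 41) and 20 to 27 of the small subunit (main 26), lowest under quantile normalization for the large subunit and without Ctrl 47 for the small. Leaving out 1 library gave 37 to 40 and 20 to 27. Over all tested genes, the stricter filter left 1519 genes with 380 higher and 357 lower (main 883 and 767). Members apart from the family's sum numbered 4 without IL-2 44 and Ctrl 48 together and 1 to 5 when 1 library was left out (main 7). The difference in share was 1.64 percentage points without the 100 most abundant genes in the denominator (main 1.25) and 1.14 to 1.39 when 1 library was left out. The cause of these differences was not tested, beyond the fewer genes that the stricter filter leaves. Over 51 named genes and 22 alternatives, 1030 of 1112 values kept direction and side of the threshold, 64 no longer passed, 10 newly passed and 8 changed sign. Those 8 were of genes that did not pass in the main fit or in these fits. Leaving out 1 library, Mdm2 ranged from −0.078 (without Ctrl 48) to 0.062 (without Ctrl 45), and it was 0.022 with array weights (main −0.0077). Nmd3 ranged from −5.18e-05 (without Ctrl 47) to 0.10 (without IL-2 44), Rpl27 from −0.0071 (without Ctrl 48) to 0.14 (without Ctrl 45) and Rpl7l1 from −0.0018 (without Ctrl 47) to 0.087 (without Ctrl 45). Rpl27 was −0.015 without IL-2 44 and Ctrl 48 together. Rplp2 and Rps6 lost the call in 15 alternatives each, Rpl11 in 12, Rps3a1 in 10 and Rps24 in 9. No paired analysis was possible because the labels number the IL-2 libraries 41 to 44 and the Ctrl libraries 45 to 48, so the groups share no number. Depth limits Rps27l, Rpl22l1, Rpl12 and Rps4l, which had too few reads for the main test.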
